A study of Homo sapiens with 4 samples.

Results

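INPP4B and 7 other genes around phosphoinositide 3-kinase (PI3K) were read on 4 whole-transcript arrays of 22Rv1, a line of human prostate cancer cells that grow despite castration. The 8 genes were picked by symbol: INPP4B because its signal is higher with dihydrotestosterone (DHT) in these very arrays, and INPP4A, PIK3R1, PIK3R3, PIK3CA, PIK3CB, AKT1 and PHLPP1 as PI3K subunits, phosphatases and an AKT kinase. A named probe set was found for 6 of the 8, among 17687 named genes in all, and PIK3R3 and PIK3CA were not analysed here. All 4 groups were kept in charcoal-treated serum, which is low in hormone, and transfected 48 h before hormone. The first group received control siRNA (siControl) and ethanol vehicle, the second siControl and 10 nM DHT, the third an siRNA against the transcription factor OCT1 (siOCT1) and vehicle, and the fourth siOCT1 and 10 nM DHT, each for 24 h. There was 1 array per group, so differences have no replicate check, and depletion of OCT1 was not checked here because its gene was not analysed. Values are log2 signals on the scale the authors deposited.

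Class I PI3Ks pair a catalytic subunit (PIK3CA, PIK3CB) with a regulatory one (PIK3R1, PIK3R3) and add a phosphate to a membrane inositol lipid, which draws AKT kinases to the membrane and activates them. Lipid 5-phosphatases trim the product of PI3K, and the 4-phosphatases INPP4A and INPP4B remove the next phosphate. PHLPP1 dephosphorylates AKT itself. In prostate epithelium, INPP4B is known as an androgen receptor target.

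The windows around annotated transcription starts are shown for INPP4B, which carries the DHT difference, and for PIK3R1, which carries the siRNA difference. They are RefSeq sequences of build GRCh38.p14, each 300 bases, from 250 before to 50 after a start, in gene orientation. INPP4B has 6 such windows and PIK3R1 has 4, and each gene is read by 1 probe set here (TC0400011994.hg.1 and TC0500007641.hg.1), so its value cannot say which start was used. Capitals mark the 6-letter androgen receptor half-site TGTTCT, searched on both strands.
INPP4B chr4:142846252-142846551, minus strand: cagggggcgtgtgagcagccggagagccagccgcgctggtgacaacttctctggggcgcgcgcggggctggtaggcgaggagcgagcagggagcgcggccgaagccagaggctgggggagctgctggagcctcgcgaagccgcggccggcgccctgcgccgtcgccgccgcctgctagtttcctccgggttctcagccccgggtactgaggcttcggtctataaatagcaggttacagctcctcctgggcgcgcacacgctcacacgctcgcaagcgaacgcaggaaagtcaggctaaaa
INPP4B chr4:142405810-142406109, minus strand: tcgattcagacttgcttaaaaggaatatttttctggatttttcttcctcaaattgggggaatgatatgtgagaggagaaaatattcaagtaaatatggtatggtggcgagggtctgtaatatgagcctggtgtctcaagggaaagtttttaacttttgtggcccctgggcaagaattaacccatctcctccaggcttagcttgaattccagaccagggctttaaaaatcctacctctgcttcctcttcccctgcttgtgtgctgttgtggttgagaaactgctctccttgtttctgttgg
PIK3R1 chr5:68215506-68215805, plus strand: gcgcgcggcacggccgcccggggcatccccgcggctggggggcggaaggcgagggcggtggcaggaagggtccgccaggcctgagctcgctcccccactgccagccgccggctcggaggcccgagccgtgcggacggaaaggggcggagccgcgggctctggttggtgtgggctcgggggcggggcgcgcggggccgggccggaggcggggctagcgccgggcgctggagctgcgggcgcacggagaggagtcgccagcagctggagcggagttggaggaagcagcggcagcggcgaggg
PIK3R1 chr5:68290414-68290713, plus strand: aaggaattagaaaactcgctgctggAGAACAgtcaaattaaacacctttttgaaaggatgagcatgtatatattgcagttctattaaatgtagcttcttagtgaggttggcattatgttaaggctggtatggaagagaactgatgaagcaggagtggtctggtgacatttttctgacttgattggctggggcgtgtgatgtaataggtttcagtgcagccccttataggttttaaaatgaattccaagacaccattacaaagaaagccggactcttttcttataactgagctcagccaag
PIK3R1 chr5:68292327-68292626, plus strand: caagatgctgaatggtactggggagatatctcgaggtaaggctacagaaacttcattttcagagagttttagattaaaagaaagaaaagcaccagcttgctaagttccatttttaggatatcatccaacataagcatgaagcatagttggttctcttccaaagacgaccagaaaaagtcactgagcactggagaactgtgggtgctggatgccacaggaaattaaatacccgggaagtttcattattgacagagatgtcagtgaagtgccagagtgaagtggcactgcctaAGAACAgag
Both INPP4B windows hold no capitals, and the half-site was in none of its 6 windows. It was in 2 of the 4 PIK3R1 windows, both printed. Those were the only 2 among the 17 windows of the 6 genes (11.8%), against 14.8% of all 35116 windows. The windows also differ in base composition, since the first INPP4B window has a GC content of 68.7% and the second 43.0%, and the first PIK3R1 window has 80.0%. The octamer ATGCAAAT, the site OCT1 is named for, was in 0 of the 17 windows of the 6 genes and in 1.77% of all windows, searched on both strands. The full androgen element, AGAACA and TGTTCT with any 3 letters between them, which contains the half-site above, was in 0 of the 17 and in 0.00285% of all. These are matches of letters in short windows, not binding sites.

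INPP4B signal was high on both DHT arrays and low on both vehicle arrays. It read 4.78 in siControl vehicle, 9.47 in siControl DHT, 6.19 in siOCT1 vehicle and 9.56 in siOCT1 DHT. Both vehicle values lay below the background of their arrays, which is the level that 95% of negative control probe sets stay under (6.62 and 7.39). The DHT fold is therefore a bound, at least 7.21-fold under siControl and at least 4.49-fold under siOCT1. On the deposited scale the differences were 4.69 and 3.37, and with values lifted to 7.39, the highest of the 4 backgrounds, they were 2.08 and 2.17. INPP4B was chosen for this contrast, so these values describe the choice and carry no test.

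**Figure D1:**
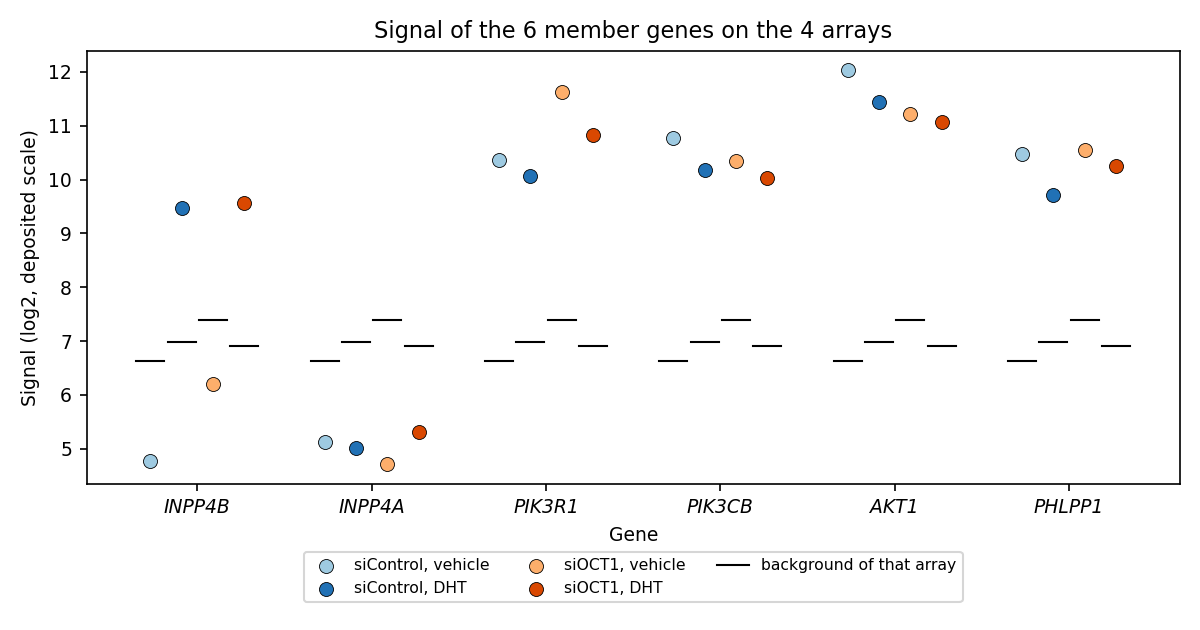
Signal (log2, deposited scale) of the 6 genes on each of the 4 arrays, 1 point per array, with short black lines at that array's background. INPP4B lies below background in vehicle and near 9.5 in DHT under both siRNAs, INPP4A lies below background throughout, and PIK3R1 is highest in siOCT1 vehicle at 11.63.

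With DHT present, INPP4B stood at nearly the same level under both siRNAs. The siOCT1 minus siControl difference in DHT was 0.09. In vehicle it was 1.42, but both of those values lay below background, and the difference was 0 once values were lifted to 7.39. In an additive limma fit of siRNA and ligand across all measured genes, the siRNA difference of INPP4B was 0.75 (SE 0.39) with an adjusted p of 0.19. The DHT difference was smaller under siOCT1 by a value of -1.33, and that gap comes almost wholly from the vehicle arrays, where both values were below background.

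The paralog INPP4A, the other inositol polyphosphate 4-phosphatase, was not detectable. It read 5.13, 5.02, 4.71 and 5.30 in siControl vehicle, siControl DHT, siOCT1 vehicle and siOCT1 DHT. Every value lay 1.49 or more below its array's background, so no fold is given. INPP4A was also the 1 gene of the 6 that missed the measured level, a highest value above 6.51, the median of that value over all named genes. The other 5 passed, INPP4B through its DHT arrays alone.

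PIK3R1 had higher signal in siOCT1 cells in both ligand states. It encodes the p85-alpha regulatory subunit and shorter forms made from other starts, which hold and stabilise the catalytic subunit. PIK3R1 read 10.36 in siControl vehicle and 10.06 in siControl DHT, against 11.63 in siOCT1 vehicle and 10.82 in siOCT1 DHT. Both siOCT1 arrays were above both siControl arrays. The differences were 1.27 in vehicle (2.41-fold) and 0.76 in DHT (1.69-fold), and the limma estimate was 1.01 (SE 0.26) with an adjusted p of 0.0334. That fit has 1 residual degree of freedom, the siRNA-by-ligand difference, and not the spread between cultures. The call ended in 3 of the 9 alternative fits: adjusted p was 0.0547 with no filter on dim genes, 0.0533 without the intensity trend and 0.0503 with values raised to background.

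PIK3R1 also read lower with DHT than with vehicle, by values of -0.30 in siControl and -0.81 in siOCT1. This did not pass in the limma fit (-0.56, SE 0.26, adjusted p 0.41). The siOCT1 vehicle array is the highest of the 4 for PIK3R1, so it enters the largest siRNA difference and the largest DHT difference alike.

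The catalytic subunit gene PIK3CB, which encodes p110-beta, moved little. It read 10.77 and 10.18 in siControl vehicle and DHT, and 10.35 and 10.03 in siOCT1 vehicle and DHT. The siRNA differences were -0.43 in vehicle and -0.15 in DHT (limma -0.29, SE 0.25, adjusted p 0.43). With DHT the values were lower under both siRNAs, by -0.59 and -0.31 (limma -0.45, SE 0.25, adjusted p 0.48). None of these passed the test, and the 4 values span 0.74.

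AKT1, the kinase that PI3K activates, was highest in siControl vehicle and lower on the other arrays. It read 12.03 and 11.45 in siControl vehicle and DHT, and 11.22 and 11.06 in siOCT1 vehicle and DHT. Both siOCT1 arrays were below both siControl arrays, with differences of -0.81 in vehicle and -0.39 in DHT. The limma estimate of -0.60 (SE 0.25) had an adjusted p of 0.12 and did not pass. The DHT differences of -0.58 in siControl and -0.16 in siOCT1 did not pass either (adjusted p 0.55 in limma).

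PHLPP1, a phosphatase that removes an activating phosphate from AKT, read 10.47 in siControl vehicle, 9.72 in siControl DHT, 10.55 in siOCT1 vehicle and 10.24 in siOCT1 DHT. Its lowest value was in siControl DHT, and the other 3 arrays lay within 0.31 of each other. The DHT differences were -0.75 and -0.31 (limma -0.53, SE 0.26, adjusted p 0.43) and the siRNA differences 0.08 and 0.53 (limma 0.31, SE 0.26, adjusted p 0.42).

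Counted by size, 1 of the 5 measured members, PIK3R1, was higher with siOCT1 by at least 1.5-fold (0.58 on the log2 scale) in both ligand states, and 0 were lower. Over all measured genes these shares were 12.2% higher and 18.7% lower, so 1 of 5 is near the background. With DHT, 1 of 5, INPP4B, was higher under both siRNAs and 0 were lower, beside 4.86% and 4.37% of all genes, and nothing is read from that count because INPP4B was picked on it. PIK3R1, PIK3CB, AKT1 and PHLPP1 all had DHT differences below 0 under both siRNAs, and none of them passed in limma (adjusted p 0.41 to 0.55). INPP4B was far above 0, but it was picked for that, so the split in sign is partly built in. The share of all measured genes below 0 under both siRNAs was not counted. The 5 members had a median DHT difference of -0.45, against 0.01 over all measured genes, and a median siRNA difference of 0.31 against -0.06. Centring arrays on the positive control probe sets, whose median was 12.34 in siControl vehicle and 12.13 to 12.19 elsewhere, shifted the median DHT difference of all genes in siControl by 0.15 and the siRNA difference in vehicle by 0.22, and no member difference past 1.5-fold changed sign.

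**Figure D2:**
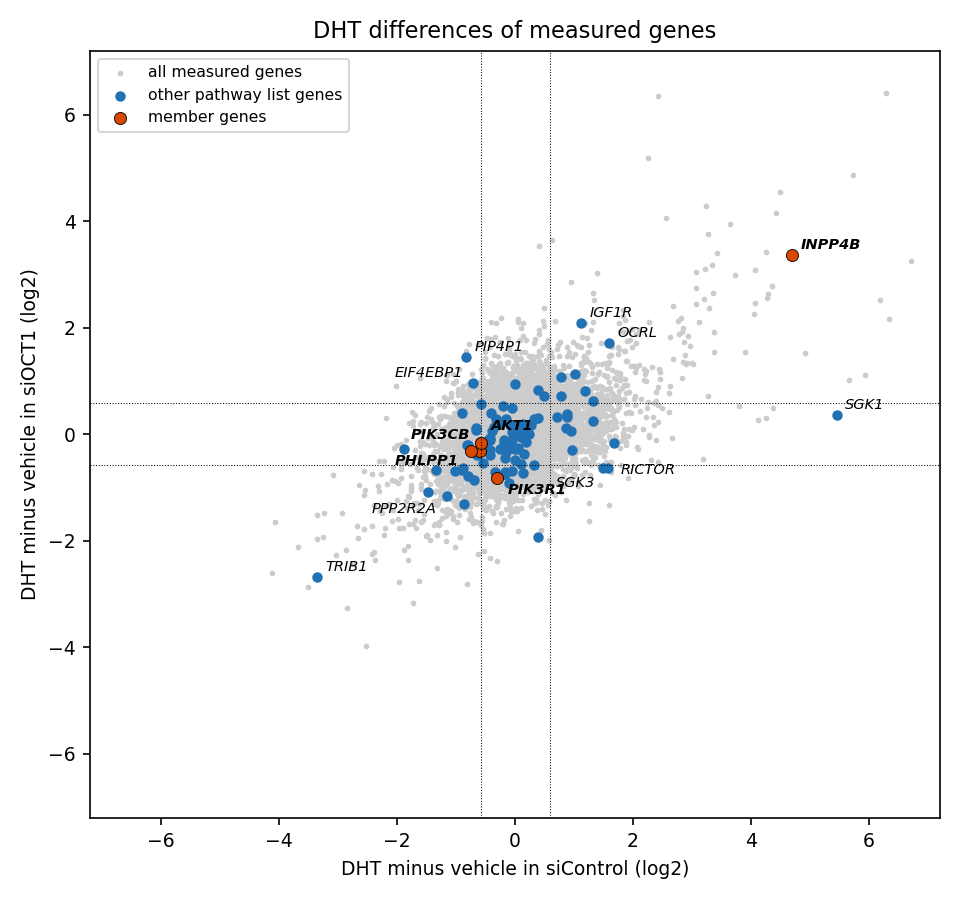
DHT minus vehicle (log2) in siControl cells on the x axis and in siOCT1 cells on the y axis for measured genes, with dotted lines at 1.5-fold. INPP4B lies at 4.69 and 3.37, and PIK3R1, PIK3CB, AKT1 and PHLPP1 lie between -0.81 and -0.16.

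The genes with the most similar pattern to INPP4B were GJA1, RHOU, OCRL, SCGB1D2 and ELOVL5. Likeness was the Euclidean distance over the 4 arrays, after values were raised to the highest background and each gene was centred on its mean, and the distances were 0.55, 0.60, 0.62, 0.65 and 0.65 on the log2 scale among 8842 genes. GJA1, the gap junction protein connexin 43, was lower in vehicle (7.36 and 7.26) than in DHT (9.34 and 8.89). Its siOCT1 vehicle value lay below background. Both its vehicle values were raised to 7.39 before the distance was taken, as were both of INPP4B, so these match by construction. RHOU read 8.51, 11.35, 8.79 and 10.72 in siControl vehicle, siControl DHT, siOCT1 vehicle and siOCT1 DHT. ELOVL5, a fatty acid elongase, differed by 2.05 and 1.25 with DHT. With 4 arrays, any gene high on both DHT arrays by a similar amount comes close.

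OCRL is a lipid 5-phosphatase, on the same list of phosphoinositide phosphatases as INPP4B. OCRL read 9.41 and 9.80 in vehicle and 11.00 and 11.50 in DHT under siControl and siOCT1, above background throughout. Both DHT arrays exceeded both vehicle arrays, an order that likeness to INPP4B, itself picked as higher with DHT, builds in. OCRL rose with DHT by 1.59 and 1.71 (limma 1.65, SE 0.25, adjusted p 0.0385), a call that ended with no filter (0.0635), without the trend (0.0786) and with values raised to background (0.122). Among the 19 measured phosphoinositide phosphatases, 4 were higher with DHT by the size rule under both siRNAs and 3 were lower, beside 4.86% and 4.37% of all genes. INPP4B is among the 4 by choice. Under siOCT1, PIP4P2 among the higher and INPP5B among the lower differed between 2 values below background. With values raised to background 3 of 17 were higher and 1 was lower, so nothing is read from these shares. Leaving aside INPP4B, which was picked on this contrast, OCRL was the 1 phosphatase called by limma, beside 0.679% of all genes called higher. INPP5B, a 5-phosphatase like OCRL, read lower with DHT, at 7.45 and 6.59 in siControl and at 6.91 and 5.59 in siOCT1, above background in siControl vehicle alone (adjusted p 0.25 in limma).

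With siOCT1, 3 of the same 19 phosphatases fell in the limma fit and 0 rose, beside 15.3% and 9.1% of all genes (1353 fallen and 805 risen, or 1342 and 1233 with arrays centred on positive controls). MTMR4, a myotubularin that removes the phosphate from endosomal phosphatidylinositol 3-phosphate, read 12.43 and 12.16 in siControl against 10.60 and 10.80 in siOCT1 (vehicle, then DHT). It fell by 1.83 and 1.37 (limma adjusted p 0.00716). Its relative MTMR2 fell by 1.33 and 1.02 (adjusted p 0.0161). The third, PIP4P2, was below background on both siOCT1 arrays and was at least 1.98-fold lower in DHT, a call (0.0440) that ended with values raised to background (0.385) and under 3 other alternatives. The median siRNA difference of the 19 was -0.23. With arrays centred on positive controls, 2 rose and 2 fell and the median was -0.12, so the one-sided count depends on the scaling.

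Among class II and III PI3Ks, which make other lipids on endosomes and autophagic membranes, 2 of 6 measured genes were higher by size with siOCT1 (12.2% of all genes) and 0 passed in limma (9.1% of all genes). The limma count was 1 with loess, 1 with the stricter filter and 2 with positive control centring. PIK3C3, the class III enzyme, read 9.31 and 9.26 in siControl and 10.14 and 10.04 in siOCT1 (differences 0.83 and 0.77, adjusted p 0.0579, and 0.0309 to 0.0990 over the alternatives, with a call in 3 of 10 fits). PIK3C2B lay below background on all 4 arrays. The list of other phosphoinositide kinases had 1 of 10 risen and 1 fallen with siOCT1 in limma, near the 9.1% and 15.3% of all genes. PIP5K1C, which makes the bisphosphate that PI3K uses, rose by 1.27 and 1.29 (adjusted p 0.0139), from 9.57 and 9.59 to 10.85 and 10.87. PI4K2B, which works a step earlier, fell by 1.43 and 0.99 (adjusted p 0.0201).

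Upstream of PI3K, receptors and adaptors showed differences in both directions. Of 11 measured, 4 rose and 1 fell with siOCT1 in the limma fit, beside 9.1% and 15.3% of all genes, and the median difference was 1.12. With no filter 2 of 22 rose and 1 fell. EGFR, the epidermal growth factor receptor, fell from 10.39 and 9.50 in siControl to 7.04 and 7.44 in siOCT1, at least 7.98-fold in vehicle and by 2.05 in DHT (adjusted p 0.00459). Its relative ERBB4 rose by 1.82 and 1.26 (adjusted p 0.0110), from 8.74 and 8.55 to 10.56 and 9.81. GAB1, a docking protein that recruits PIK3R1 to receptors, rose by 2.64 and 1.83 (adjusted p 0.00459), from 8.12 and 8.03 to 10.76 and 9.85.

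IGF1R, the insulin-like growth factor receptor, and the adaptor GRB14 also rose with siOCT1 (adjusted p 0.0444 and 0.0425), and each call ended under 4 alternatives, with adjusted p up to 0.0833 for IGF1R and 0.481 for GRB14. IGF1R was higher with DHT as well, at 7.49 and 8.61 in siControl and 8.13 and 10.22 in siOCT1, without passing (adjusted p 0.084 in limma). The receptor median was 0.09 over the 8 genes left when values were lifted to background, and 0.06 over all 22 named genes with no filter.

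**Figure D3:**
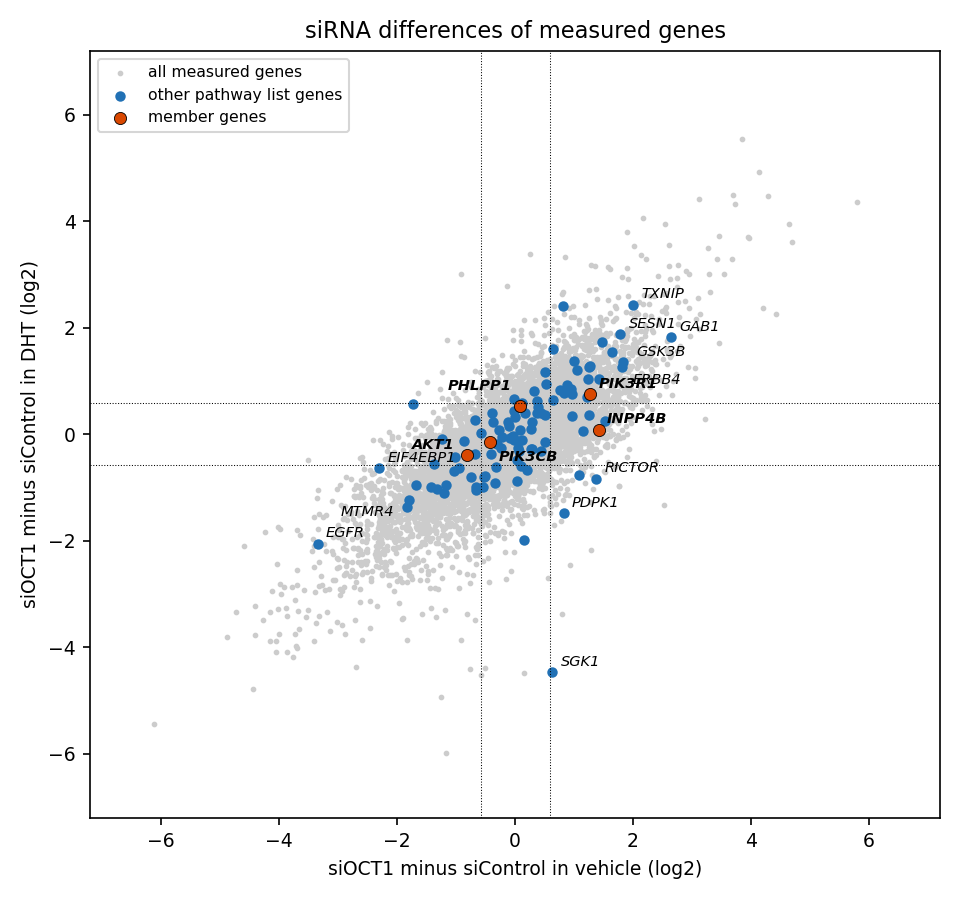
siOCT1 minus siControl (log2) in vehicle on the x axis and in DHT on the y axis for measured genes, with dotted lines at 1.5-fold. PIK3R1 lies at 1.27 and 0.76 among genes higher in both ligand states, GAB1 and TXNIP lie further out, and EGFR lies at -3.35 and -2.05.

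Downstream of PI3K and AKT, 7 of 15 measured FOXO factors and FOXO-induced genes rose with siOCT1 and 0 fell. FOXO factors are transcription factors that AKT keeps out of the nucleus. Over all measured genes limma called 9.1% higher and 15.3% lower. By the size rule 8 were higher and 0 lower, beside 12.2% and 18.7% of all genes, and the median difference was 0.90. The eighth, PIK3IP1, lay below background on all 4 arrays and did not pass in limma (adjusted p 0.0608). TXNIP, a thioredoxin inhibitor that limits glucose uptake, read 12.66 and 12.27 in siControl and 14.66 and 14.71 in siOCT1, and rose by 1.99 and 2.44 (adjusted p 0.00194). CDKN1B, the cell cycle inhibitor p27, rose by 1.48 and 1.74 (adjusted p 0.00775), from 9.43 and 8.78 to 10.91 and 10.51. SESN1 and CDKN1A rose too (adjusted p 0.00615 and 0.00459), and both are known p53 targets as well.

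CCNG2, BCL6 and KLF6, named after their values were seen, completed the 7, with estimates of 1.26, 1.23 and 0.90. KLF6 lost its call under 5 alternatives, with adjusted p up to 0.0919. IRS2 and GADD45A, also named after their values were seen, differed in sign between the ligand states (-0.67 and 0.28, and -0.37 and 0.24). So named too, ERBB3 (-0.03 and -0.02) and CITED2 (-0.02 and -0.10) hardly differed. SESN3 (1.52 and 0.25) and BCL2L11 (0.52 and 0.95), likewise named late, did not pass in limma (adjusted p 0.11 and 0.095). FOXO3 itself differed by 1.08 in vehicle and -0.76 in DHT, and FOXO1, FOXO4 and FOXO6 missed the measured level. With positive control centring 9 of the 15 rose. The risen count was 6 of 20 with no filter, 6 of 15 with 32 added and 6 of 14 with values raised to background.

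**Figure D4:**
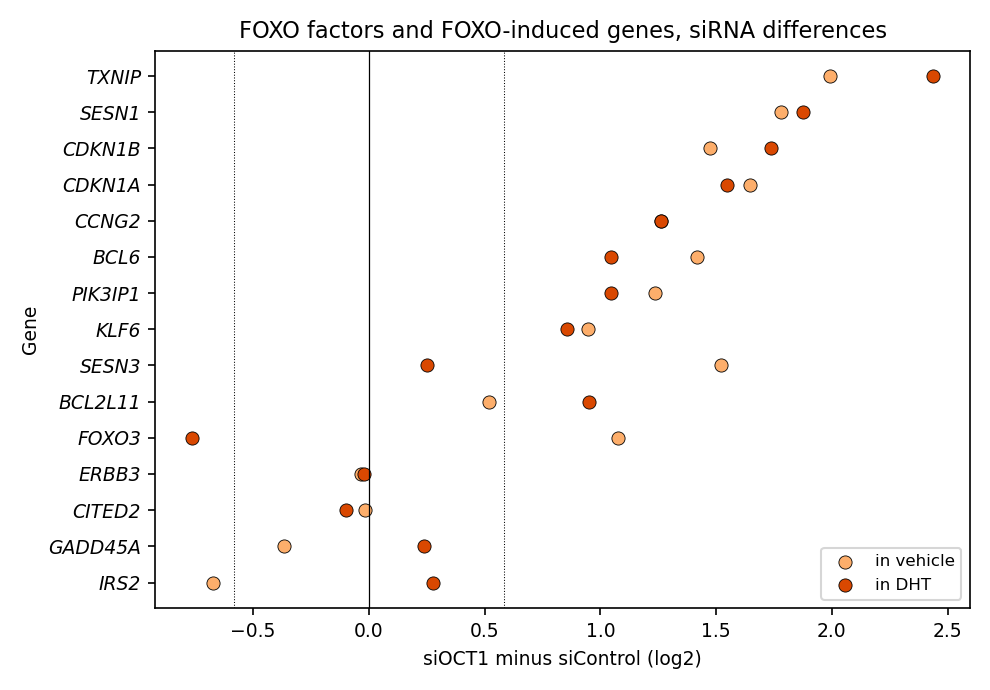
siOCT1 minus siControl (log2) in vehicle (light) and in DHT (dark) for the 15 measured genes of the FOXO list, with dotted lines at 1.5-fold. TXNIP, SESN1, CDKN1B, CDKN1A, CCNG2, BCL6, PIK3IP1 and KLF6 lie past the line in both ligand states, and IRS2 and GADD45A on either side of 0.

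The AKT substrate list, 12 measured genes, had 2 risen and 1 fallen, near the 9.1% and 15.3% of all genes. GSK3B, a kinase that AKT inhibits, rose by 1.84 and 1.36 (adjusted p 0.00655), from 11.20 and 11.19 to 13.03 and 12.55. ACLY, which makes cytosolic acetyl-CoA and is phosphorylated by AKT, fell by 1.79 and 1.23 (adjusted p 0.00782). CDKN1B is on this list too.

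In the mTORC1 branch, which AKT activates by releasing the brake of the TSC complex, 3 of 15 measured genes rose and 4 fell, beside 9.1% and 15.3% of all genes. These counts were 1 and 0 with no filter, 1 and 1 with values raised to background, 3 and 2 with loess and 5 and 4 with positive control centring. TSC1, a subunit of that brake, rose by 1.22 and 0.70 (adjusted p 0.0379). RHEB, the GTPase it restrains, fell with an estimate of -0.96 (adjusted p 0.0482), and EIF4EBP1, a translation repressor that mTORC1 switches off, fell by 2.31 and 0.64 (adjusted p 0.0403). DDIT4, an inhibitor of mTORC1, fell by 1.17 and 0.95 (adjusted p 0.0296), and SESN1, another inhibitor, rose as given above. EIF4EBP2 fell and TBC1D7 rose (adjusted p 0.0301 and 0.0461). RHEB, EIF4EBP2 and TBC1D7 were named after their values were seen, and apart from SESN1 each of these calls ended under 2 to 5 alternatives, with adjusted p of at most 0.0891.

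The AKT phosphatases and inhibitors, PHLPP1 included, had 1 gene risen and 1 fallen with siOCT1 among 12 measured, near the 9.1% and 15.3% of all genes. With loess or positive control centring 2 rose and 0 fell, and with no filter or values raised to background 0 were called. PPP2R1B, a scaffold subunit of protein phosphatase 2A, rose by 0.97 and 0.76 (adjusted p 0.0433). PPP2CA, a catalytic subunit of that enzyme named after its value was seen, fell with an estimate of -0.66 (adjusted p 0.0447). Each call ended under several alternatives, with adjusted p up to 0.0700 and 0.120. With DHT, TRIB1, a pseudokinase related to inhibitors of AKT, fell from 13.26 to 9.90 in siControl and from 13.24 to 10.56 in siOCT1 (limma adjusted p 0.00558), beside 0.305% of all genes called lower. PPP2R2A, the regulatory subunit that directs the phosphatase to AKT, read lower with DHT by values of -1.15 and -1.16 (adjusted p 0.0608).

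The AKT and SGK kinases with their activators had 0 of 10 measured genes called in either contrast. Over all genes limma called 9.1% higher and 15.3% lower with siOCT1, and 0.679% and 0.305% with DHT. With so few DHT calls over all genes, 0 of 10 says little there. By the size rule 2 of the 10, MTOR and PRR5, were lower with siOCT1 and 1 was higher with DHT, beside 18.7% and 4.86% of all genes. PRR5 lay below background on all 4 arrays. AKT2, named after its values were seen, read 10.49, 10.53, 10.55 and 10.28 on the 4 arrays in the order used above. MTOR, the kinase that completes AKT activation within mTORC2, was lower with siOCT1 (-0.75 and -0.80, adjusted p 0.0652) and higher with DHT (0.78 and 0.73, adjusted p 0.27). SGK1, a relative of AKT, read 8.90 in siControl DHT and 3.45 to 4.44 elsewhere, all 3 below background. SGK3 read 7.98 in siControl DHT, its 1 value above background, and RICTOR read 9.06 in siControl DHT and 7.49 in siControl vehicle, with siOCT1 values of 8.86 in vehicle and 8.23 in DHT. Past 1.5-fold in opposite directions were 3 of the 10 for siRNA and 2 of the 10 for DHT, beside 0.961% and 1.4% of all measured genes. These were PDPK1, RICTOR and SGK1 for siRNA, and RICTOR and SGK3 for DHT. RICTOR alone among them lay above background on all 4 arrays. SGK1 in vehicle, and SGK3 under siOCT1, differed between 2 values below background. The siOCT1 DHT value of PDPK1 was below background too, so nothing is read from these shares.

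**Figure D5:**
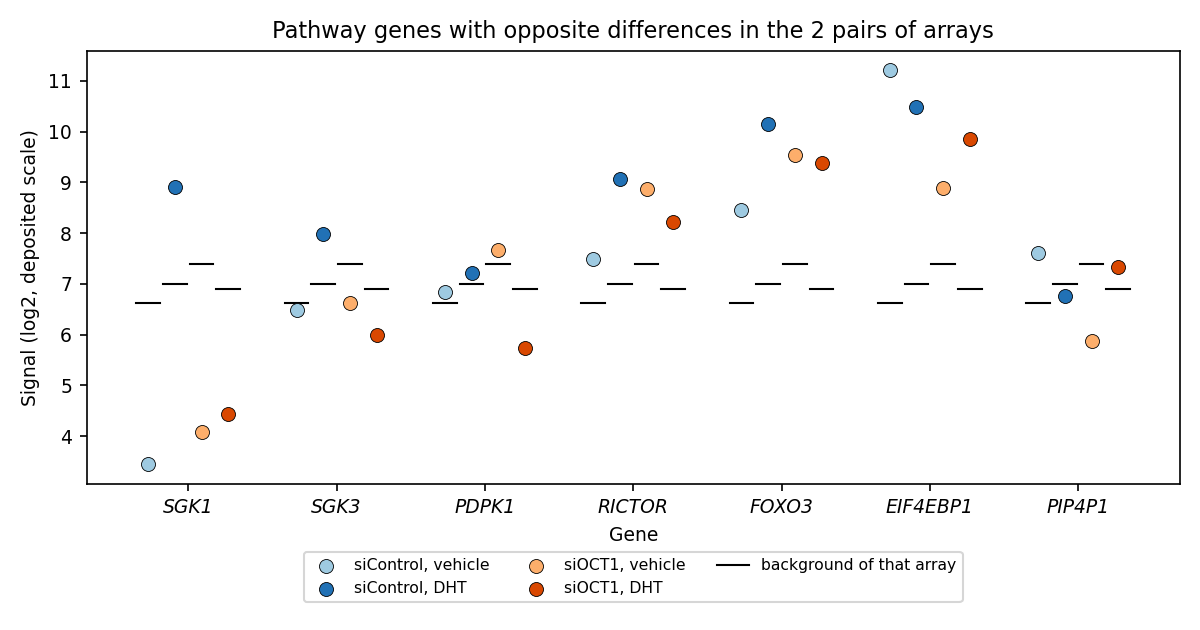
Signal (log2, deposited scale) of SGK1, SGK3, PDPK1, RICTOR, FOXO3, EIF4EBP1 and PIP4P1 on each of the 4 arrays, 1 point per array, with short black lines at that array's background. RICTOR and FOXO3 are highest in siControl DHT and lowest in siControl vehicle, and SGK1 exceeds background in siControl DHT alone.

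Over all 10 lists, 103 of 144 listed genes were measured. With siOCT1 23 were higher and 14 lower by the size rule, 35.9% together against 30.9% of all measured genes, and 17 rose and 11 fell in the limma fit. That split was 26 and 9 with arrays centred on positive controls. Of the 28 called, 15 stayed called in all 10 fits, among them GAB1, EGFR, TXNIP, CDKN1B, GSK3B and MTMR4, and PIK3R1 was not one of them. With DHT 8 were higher and 10 lower, 17.5% together against 9.23% of all genes, and TRIB1 was the 1 gene of the 3 called that stayed called in all fits. The lists were chosen with earlier results of these arrays known, so these shares are descriptions. Dim probe sets vary a lot here, and among 612 negative controls 18.6% differed past 1.5-fold in both siRNA pairs and 14.7% in both DHT pairs.

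Most luminal prostate markers named here were detected on every array. KRT8, KRT18, HOXB13, EPCAM, CDH1 and FOXA1 lay above background on all 4 arrays, KLK3 on both DHT arrays alone, and TMPRSS2 on none. KRT8, a luminal keratin, fell with siOCT1 by 0.51 and 1.44 (limma adjusted p 0.0342), and its partner KRT18 differed by -0.15 and -0.84 without passing (adjusted p 0.19). HOXB13 (0.59 and 0.28), FOXA1 (0.39 and 0.35), CDH1 (0.24 and 0.38) and EPCAM (0.02 and 0.26) were higher with siOCT1, also without passing. The median siRNA difference of the 7 measured luminal markers was 0.31. ACTA2, a smooth muscle actin, rose with siOCT1, at 5.62 and 5.90 in siControl and 7.76 and 7.37 in siOCT1 (limma adjusted p 0.0155). Of 11 markers of basal, stromal, immune and endothelial cells, 0 or 1 lay above background on each array, COL1A2 in siControl vehicle and ACTA2 on both siOCT1 arrays, and KRT5, KRT14, PTPRC, CD3E, CD68 and PECAM1 on none. The summed linear level of the 11 was 295 and 318 in siControl and 489 and 442 in siOCT1, and the part of these markers in the siRNA differences above was not tested. ACTA2 had the largest siRNA difference of the 11 in vehicle (2.13). Every other marker lay below background on both siOCT1 arrays, so the sum does not show a rise shared by the markers.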

How the data were processed

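Each group's total RNA went on 1 array after whole-transcript labelling, per the labels' protocols. The authors deposited log2 signals from RMA (Expression Console), per the submitters' processing notes. Versions and the genome build are not given in the sources used here. Quantile normalization within RMA gives all arrays 1 distribution, which hides any global change in RNA. Base 2 is inferred from the range of values. Since 327 to 379 values per array exceed 16, every fold refers to the deposited scale.

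The platform annotation gave 1 symbol to 17709 of 24351 probe sets. Of a gene's probe sets the brightest on average was used. Measured, background and bounds ("at least", the brighter value over the dimmer array's background) are defined in the results. The siRNA and ligand effects were fitted with limma 3.58.1 (R 4.3.3, lmFit and eBayes with trend) over 8843 genes with Benjamini-Hochberg adjustment at 0.05, prior degrees of freedom 5.85. Genes it called are said to have risen or fallen. The code was tested on simulated data. Differences and counts used Python 3.11.15 with pandas 2.3.3 and statsmodels 0.14.6.

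Named genes were all members, up to 4 genes per list for siRNA and 3 for DHT by largest mean difference past the size rule in both pairs, and the 5 most like INPP4B. The rule also picked KEAP1, TRIB3, PI4K2A, PRR5, TSC2, SESN2, PIP4K2B, PI4KB, GRB10 and TBC1D4, which are not described, apart from the background limit of PRR5 and GRB10. The siRNA difference of PPP2R2A and the DHT difference of BCL6 are not described either, and none of these passed in limma. The members and lists were chosen with earlier results of these data known. Alternatives were a 2-fold rule, no filter or a stricter filter on dim genes, averaged probe sets, loess or positive control centring, 32 added before the logarithm, values raised to the highest background (genes then flat on all arrays left out), and limma without trend or with robust moderation.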

Additional observations from a re-analysis of the deposited data

Results flagged for a closer look

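7 genes of the pathway lists differed past 1.5-fold in opposite directions between the pairs of arrays, and these opposite differences were not tested. With siOCT1 these were 4 of 103 measured list genes, against 0.961% of all measured genes, and with DHT 4 of 103, against 1.4%. Both counts include genes with values below background, given below, so nothing is read from these shares. RICTOR, the defining subunit of the mTORC2 complex that phosphorylates AKT, appears in both contrasts and lay above background on all 4 arrays. It read 7.49 in siControl vehicle, 9.06 in siControl DHT, 8.86 in siOCT1 vehicle and 8.23 in siOCT1 DHT, so DHT minus vehicle was 1.57 in siControl and -0.64 in siOCT1, and siOCT1 minus siControl was 1.38 in vehicle and -0.83 in DHT.

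PDPK1, which phosphorylates AKT at its activation loop, differed with siOCT1 by 0.83 in vehicle and -1.48 in DHT, where the siOCT1 value lay below background. FOXO3, above background throughout, differed with siOCT1 by 1.08 in vehicle and -0.76 in DHT. SGK1 differed by 0.63 in vehicle, with both values below background, and -4.46 in DHT. SGK3, an AKT relative that is recruited by the lipid product of INPP4B, differed with DHT by 1.5 in siControl and -0.63 in siOCT1, and lay above background in siControl DHT alone. PIP4P1, a lipid 4-phosphatase, differed with DHT by -0.84 in siControl and 1.45 in siOCT1, with siControl DHT and siOCT1 vehicle below background. EIF4EBP1, above background throughout, differed with DHT by -0.71 in siControl and 0.96 in siOCT1.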

How the results depend on the processing

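Of 116 recomputed differences of single members, 108 kept their side of the 1.5-fold line, 8 crossed it, and 0 of those past it changed sign. With the 2-fold rule, members past it with siOCT1 went from 1 to 0, list genes with siOCT1 from 37 to 17 and list genes with DHT from 18 to 7. With values raised to background there were 11 list genes with DHT, 1405 limma calls for siRNA against 2158, and 9 for DHT against 87. The DHT limma count was 57 with no filter, 30 without the trend and 305 with positive control centring. The siRNA calls split into 805 higher and 1353 lower, and into 1233 and 1342 with positive control centring. The limma calls among list genes, 28 with siOCT1 (17 risen, 11 fallen), were 10 and 5 with no filter and 10 and 6 raised to background. With DHT, 2 risen and 1 fallen became 0 and 1 raised to background, 1 and 1 with no filter, and 4 and 2 with positive control centring. Of the 2 risen, 1 is INPP4B, which was picked on this contrast and carries no test. The other size-rule counts of members and list genes, and the other limma counts over all genes, were within 1.5 times the values given. The background level limits INPP4B in vehicle and INPP4A on every array, and the number of arrays limits the rest. No paired analysis was possible because each group holds 1 array and the labels give no replicate numbers.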
